A study of Homo sapiens with 27 samples.

Results

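Endothelial cells grown in direct contact with mesenchymal stromal cells (MSCs) were compared with endothelial cells that received only the medium of such cells. The 12 libraries were those of replicates 2 to 4 of both kinds of exposure, chosen by their titles out of the 27 libraries of the series: 6 from co-culture and 6 from conditioned medium (CM), each made up of 3 with young and 3 with senescent MSCs. The endothelial cells were EA.hy926, a hybrid line of umbilical vein endothelial cells and the lung carcinoma line A549, wild type per the labels. The MSCs were ASC52telo, an adipose line immortalised with telomerase (hTERT). Young MSCs were untreated, and senescent MSCs had been given mitomycin C, which crosslinks DNA, at 1.5 µg/mL for 18 h and then kept for 10 days without passage. CM was diluted 1:1 with endothelial culture medium, co-culture held 1 MSC per endothelial cell, and both exposures lasted 48 h. Replicates 2 to 4 of unexposed endothelial cells, the control, gave the reference levels. The design asks what contact adds to soluble factors. A co-culture also receives what the MSCs secrete over the whole exposure, at a dose other than that of the diluted CM, so contact cannot be told apart from dose, cell density or MSC RNA in the lysate. Each side has 1 line of each cell type, and the labels do not say whether the cells were separated before lysis or whether replicates were separate cultures. The p-values below thus cover the library-to-library spread only, which may be technical.

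Several routes carry signals that need touching membranes. Notch receptors on one cell are cleaved when a Delta or Jagged ligand on a neighbour pulls on them, and the freed intracellular part joins the DNA-binding protein RBPJ to switch on HES and HEY repressors. Cadherins, ephrins and their Eph receptors, plexins and integrins likewise read the surface or the matrix of neighbouring cells. Stromal cells that touch the outer wall of a vessel (pericytes) are known to steady the endothelial junctions and to build the basement membrane together with the endothelium. Secreted interleukins, growth factors and interferons act without contact.

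Of 17615 genes tested with edgeR's quasi-likelihood test, with MSC state as covariate and Benjamini-Hochberg adjustment over all of them, 3842 (21.8%) differed between co-culture and CM at an adjusted p under 0.05. In co-culture 2311 (13.1%) were higher and 1531 (8.69%) lower, and the median log2 fold change of all genes tested was 0.03. All 6 co-culture libraries lay above all 6 CM libraries for 976 genes (5.54%) and below them for 412 (2.34%). The split of the calls moved with the count model and its normalization: 60.15% were higher here, 51.45% with RLE in place of TMM factors in edgeR, 60.81% with TMM over genes present in control, 48.29% with DESeq2 and 49.08% after removal of a trend on transcript length and GC content, an alternative chosen after seeing the data. The count fell to 2349 without young co-culture replicate 2, 2473 without young CM replicate 3, 2384 without senescent CM replicate 3 and 2472 without young co-culture replicate 4, and to 206 with replicate 1 of the groups that have one added. Levels below are CPM, counts scaled to library size with TMM factors over all 27 libraries, and ± stands for the SD beside a level (n = 6 libraries a side unless another n is given) and for the standard error beside a difference in log2 units.

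Genes of stromal cells were higher in co-culture than in CM, and RNA of the MSCs in the lysate and expression by endothelial cells cannot be told apart for them. COL1A1 (ENSG00000108821.14; chromosome 17, 50183289 to 50201632, minus strand), the main chain of collagen I and a defining stromal marker, stood at 71.2, 60.2 and 46.7 CPM with young and at 168, 132 and 117 CPM with senescent MSCs, against 5.35, 6.58 and 9.45 CPM (lowest, median and highest) in CM and 5.43 to 6.08 CPM in control. The co-culture libraries stood apart from CM and control without overlap, and those with senescent MSCs above those with young ones. Control replicate 1, which is used here only as a gauge, carried 4104 CPM of COL1A1 and 644 CPM of TERT, the gene used to immortalise the MSC line, although its label names unexposed endothelial cells. Measured against that library, the mean of COL1A1 was at 1.45% of its level in young and at 3.39% in senescent co-culture, that of TERT at 1.04% and 0.583%, and that of POSTN, a matrix protein of fibroblasts, at 1.49% and 2.11%. Other tracers stood higher on this gauge, COL3A1 at 1.73% and 5.61% and LUM at 2.91% and 9.67%. DCN, a small proteoglycan at 18.9 CPM in that library, was at 10.6% and 40.0%. No background level was subtracted from these percentages. DCN ran from 1.39 to 2.85 CPM in young co-culture, which overlapped CM (0.824 to 1.77 CPM) and control (0.913 to 1.41 CPM). Its 10.6% thus includes the level seen in control and cannot be read as stromal RNA alone. In senescent co-culture DCN lay above CM and control, at 5.34 to 10.7 CPM. Of 39 stromal markers, 38 had a higher mean in co-culture than in CM, and their summed share of counts ran from 0.970 to 1.17% in co-culture, from 0.661 to 1.04% in CM and from 0.611 to 1.07% in control, so the ranges of the sum overlapped. The largest member was VIM, at a mean of 5371 CPM in control, 5173 in CM and 5518 in co-culture. ENG, also in the endothelial list, had 1127 CPM in control, against 5.79 CPM for COL1A1. The sum thus mainly followed genes that control cells express and does not gauge stromal RNA. The defining markers LUM, PDGFRA and PRRX1 were under 0.5 CPM on average in control and at 1.01 to 5.69, 0.776 to 1.44 and 1.22 to 2.60 CPM in the co-culture libraries. In bulk RNA, more MSCs and more RNA per MSC cannot be told apart.

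**Figure D1:**
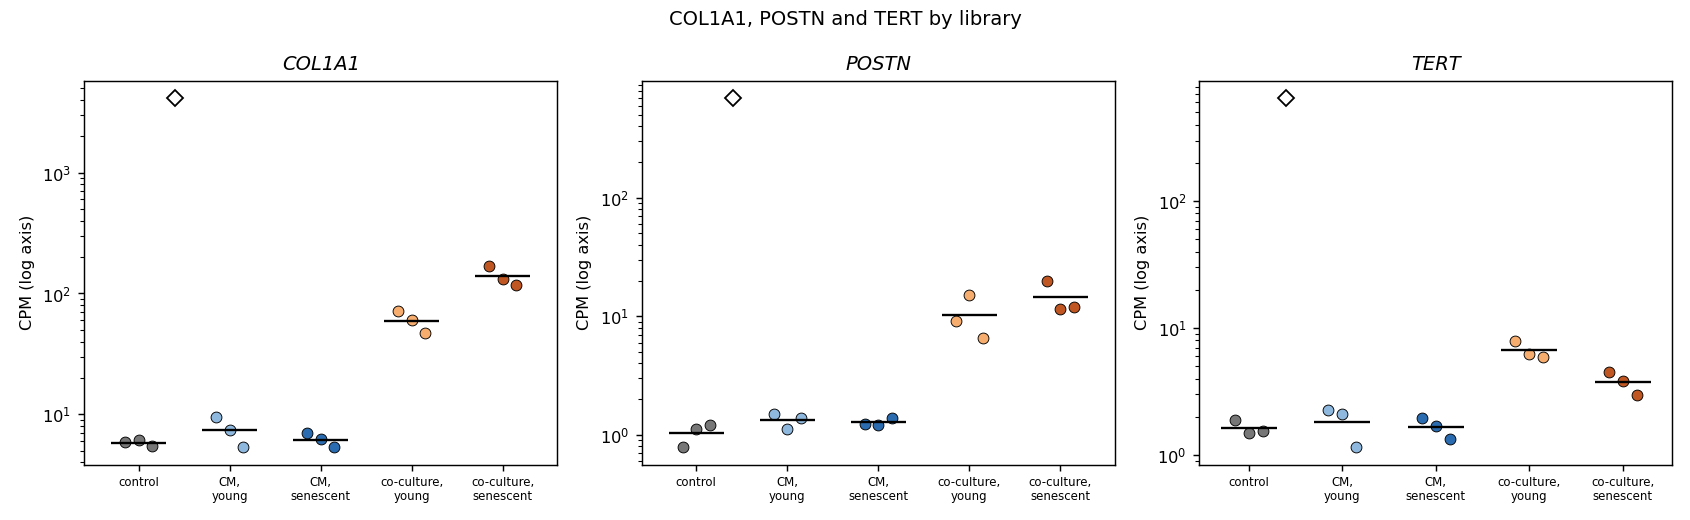
CPM (log axis) of COL1A1, POSTN and TERT in the libraries of replicates 2 to 4, with bars at group means (n = 3) and control replicate 1 as an open diamond. COL1A1 lay between 46.7 and 168 CPM in co-culture and between 5.35 and 9.45 CPM in CM, and TERT was higher in young than in senescent co-culture, the reverse of COL1A1.

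Genes were set apart in 3 classes. A gene was near absent when its mean in control replicates 2 to 4 was under 0.5 CPM (4069 genes: 576, or 14.2%, rose and 160, or 3.93%, fell). It had a stromal excess when control replicate 1 was at 4 or more times that mean and at 1 CPM or more (275 genes: 125, or 45.5%, rose and 8, or 2.91%, fell). The other 13271 genes were present in control endothelial cells without such an excess, and of these 1610 (12.1%) rose and 1363 (10.3%) fell. The last split went from 54.15% higher to 44.31% with RLE factors, 41.92% with DESeq2 and 41.04% after removal of the length and GC trend. Among the 125 stromal excess genes that rose, 0 had a co-culture mean above control replicate 1, and their median was 15.8% of it. Of the 576 near absent genes that rose, 287 had a co-culture mean above control replicate 1, and of the 1610 present in control that rose, 1215 did. The stromal excess class was picked for a high level in that library, the present class for no such excess, and the near absent class for neither. These counts therefore cannot be set against each other and do not tell the source of the RNA. The same holds for the levels of single genes set against that library below. Single genes named below were present in control unless their class is given, while counts over lists cover all 3 classes, with the count over the members present in control beside many of them. List counts over both MSC states with all 12 libraries are to be read against the 13.1% of all genes tested that rose and the 8.69% that fell. Those over members present in control stand against 12.1% and 10.3%.

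The genes of the immediate early response, transcription factors switched on within minutes by MAP kinase and calcium signals, held the highest fold changes among genes present in control at 5 CPM or more in co-culture or CM. FOS (ENSG00000170345.10; chromosome 14, 75278774 to 75282230, plus strand), a subunit of the AP-1 factor, stood at 22.5, 46.9 and 94.4 CPM in co-culture and 2.10, 3.16 and 4.93 CPM in CM (lowest, median and highest of 6), with 2.18 to 2.51 CPM in the 3 control libraries. Every co-culture library lay above every CM library, and control lay within the range of CM. The log2 fold change of FOS was 3.94 ± 0.35 (adjusted p = 1.73e-05), and its level in control replicate 1, 9.12 CPM, was below all 6 co-culture libraries. FOSB, another AP-1 subunit, rose by 3.11 ± 0.31 log2 units (adjusted p = 2.64e-05), from 0.925, 1.34 and 2.12 CPM in CM to 6.07, 10.8 and 26.3 CPM in co-culture. EGR1, a zinc finger factor of the same response, stood at 10.8, 13.1 and 20.8 CPM in co-culture and 0.875, 1.24 and 1.71 CPM in CM and rose by 3.51 ± 0.18 log2 units (adjusted p = 7.33e-08). The 6 co-culture libraries of EGR1 were all below the 26.0 CPM of control replicate 1, and the gene belongs to the stromal excess class, while FOS, at 3.88 times its control mean in that library, lay just under the 4-fold limit. DUSP6 and DUSP1, phosphatases that shut MAP kinases off, rose by 1.31 ± 0.10 log2 units (adjusted p = 7.13e-06) and by 0.78 ± 0.11 log2 units (adjusted p = 0.000306). JUNB rose by 1.3 ± 0.12 log2 units (adjusted p = 2.06e-05) and IER2 by 0.40 ± 0.11 log2 units (adjusted p = 0.0189), and the near absent IER3 by 2.05 ± 0.29 log2 units (adjusted p = 0.000388). JUNB stood at 70.7 ± 11.2 against 29.1 ± 6.0 CPM, and these 3 were chosen after their values were seen.

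Other members fell or did not pass the test. Of the immediate early genes and MAP kinase feedback genes tested, 14 of 33 rose and 2 fell, with a median log2 fold change of 0.31. Of these genes 11 of the 29 present in control rose and 2 fell. FOSL1, an AP-1 subunit that follows sustained MAP kinase activity, fell with -0.88 ± 0.15 log2 units (adjusted p = 0.00113), from 182, 286 and 390.4 CPM in CM to 132, 155 and 182 CPM in co-culture. ETV4 fell too, with a log2 fold change of -0.36 ± 0.10 (adjusted p = 0.024). MYC was at 161 ± 12.2 against 174 ± 26.1 CPM with -0.10 ± 0.10 log2 units (adjusted p = 0.469), and ATF3, a stress factor, had 0.03 ± 0.13 log2 units (adjusted p = 0.881). ETV4 and ATF3 were chosen after their values were seen. The fold changes for FOS were 3.91 ± 0.50 with young and 3.96 ± 0.50 log2 units with senescent MSCs, and for EGR1 3.52 ± 0.26 with young and 3.50 ± 0.25 log2 units with senescent MSCs, with adjusted p = 0.989 and 0.995 for the difference between the MSC states (edgeR).

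**Figure D2:**
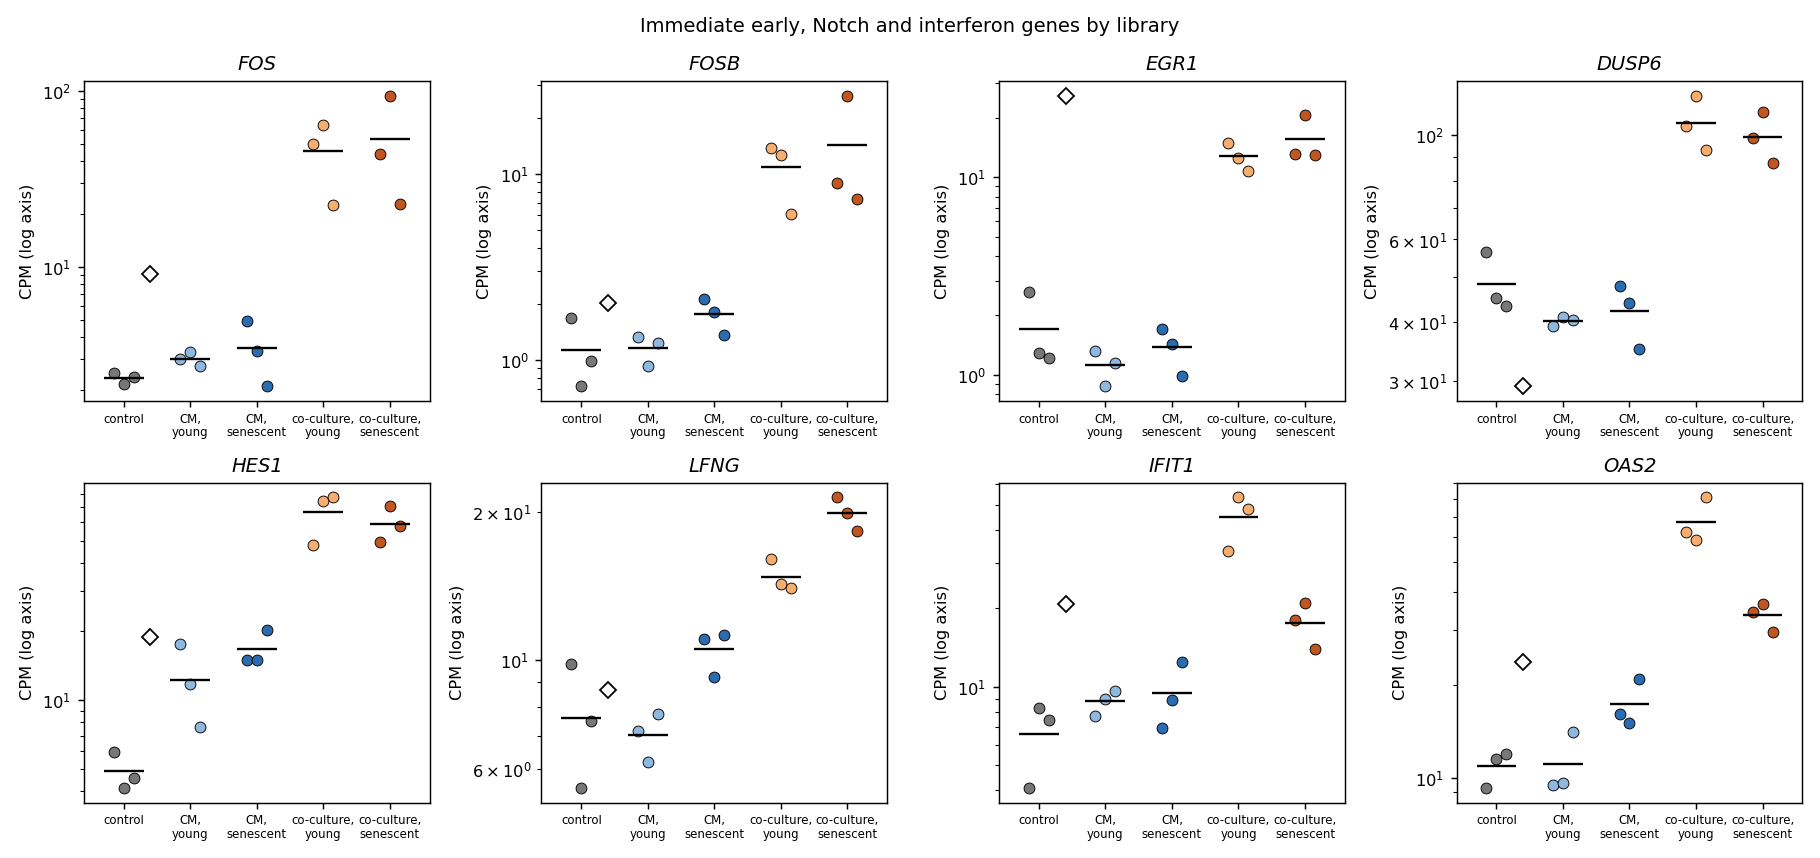
CPM (log axis) of FOS, FOSB, EGR1, DUSP6, HES1, LFNG, IFIT1 and OAS2 in the libraries of replicates 2 to 4, with bars at group means (n = 3) and control replicate 1 as an open diamond. In each panel the 6 co-culture libraries lie above the 6 CM libraries, as the rule for naming these genes required a lack of overlap. Within co-culture IFIT1 and OAS2 are higher with young than with senescent MSCs.

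EGR1 and HES1 are shown by the 250 bases before their start, since both held paired matches to an element known from their pathway. A CArG box, bound by serum response factor, occurred 2 times before EGR1. FOS, FOSB, JUNB and DUSP6 had 0 matches in their windows, which says only that these letters are not there. Of 35116 RefSeq promoters (GRCh38.p14), 1.16% held a CArG box in this window on either strand and 0.03% held 2 or more. The RBPJ core TGGGAA occurred 2 times before HES1. On either strand 20.85% of all promoters held it, and 2.9% held it 2 or more times. Capitals mark the matches, which are descriptions of the letters and not sites of binding. The window of EGR1 is chr5:138465229-138465478, plus strand, with matches starting 105 and 83 bases before the start, and that of HES1 is chr3:194135898-194136147, plus strand, with matches 84 and 70 bases before it.
EGR1: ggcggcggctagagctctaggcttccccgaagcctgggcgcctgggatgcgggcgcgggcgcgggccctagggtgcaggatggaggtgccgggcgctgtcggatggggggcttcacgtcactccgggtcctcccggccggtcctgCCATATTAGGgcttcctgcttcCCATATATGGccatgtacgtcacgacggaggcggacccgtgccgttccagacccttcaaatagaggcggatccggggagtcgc
HES1: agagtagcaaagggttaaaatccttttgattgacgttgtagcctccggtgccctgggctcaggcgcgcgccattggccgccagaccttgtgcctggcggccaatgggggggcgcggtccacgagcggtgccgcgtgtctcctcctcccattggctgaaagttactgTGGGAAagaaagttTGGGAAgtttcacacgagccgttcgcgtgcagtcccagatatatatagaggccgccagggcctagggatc

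In the Notch pathway, the target HES1 rose most among the genes present in control, while most ligands and receptors did not pass the test. HES1 (ENSG00000114315.4; chromosome 3, 194136145 to 194138732, plus strand), a repressor transcribed when RBPJ is active, stood at 47.8, 64.3 and 77.3 CPM in co-culture and 7.64, 15 and 20.3 CPM in CM, with 4.13 to 5.92 CPM in control. The 3 groups were ordered without overlap, control below CM and CM below co-culture, and control replicate 1, at 19.0 CPM, lay below every co-culture library and at 3.89 times the control mean, just under the 4-fold limit of the stromal excess class. The log2 fold change between co-culture and CM was 2.13 ± 0.21 (adjusted p = 2.14e-05). HEY1, a related repressor of endothelial cells, rose by 0.70 ± 0.10 log2 units (adjusted p = 0.000448) and HES2 by 0.70 ± 0.15 log2 units (adjusted p = 0.00676), both with overlapping libraries. NRARP, a target that feeds back on the Notch complex, had 4.25, 4.94 and 5.78 CPM in co-culture and 2.94, 4.26 and 5.20 CPM in CM and a log2 fold change of 0.24 ± 0.14 (adjusted p = 0.223), so that its libraries overlapped. HES4, in the stromal excess class, had 0.10 ± 0.23 log2 units.

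Among the ligands, DLL4, the Delta ligand of arterial and tip cells, rose by 0.76 ± 0.21 log2 units (adjusted p = 0.0215), from 0.887, 1.42 and 2.15 CPM in CM to 1.80, 2.16 and 3.33 CPM in co-culture. That call was lost without young CM replicate 3 (adjusted p = 0.0601) or without young co-culture replicate 4 (0.051; edgeR, both), and with young CM replicates 2 and 3 left out together. JAG1 and JAG2 had 0.41 ± 0.16 log2 units (adjusted p = 0.0707) and 0.42 ± 0.18 log2 units (adjusted p = 0.113) and overlapped between the groups. Of the receptors, NOTCH1 was at 113 ± 37.3 against 71.6 ± 29.3 CPM with 0.70 ± 0.25 log2 units (adjusted p = 0.0564), and NOTCH2 at 161 ± 52.3 against 145 ± 60.9 CPM with 0.19 ± 0.26 log2 units (adjusted p = 0.622). NOTCH1 passed the threshold without senescent CM replicate 2, without senescent co-culture replicate 2 or without young co-culture replicate 3 (adjusted p = 0.0125 at the lowest, log2 fold change 0.88), and with DESeq2. NOTCH3, the receptor of mural cells, was near absent in control at 0.115 to 0.155 CPM and rose by 2.83 ± 0.35 log2 units (adjusted p = 0.000132) to 0.516, 1.87 and 3.65 CPM, far under the 135 CPM of control replicate 1. LFNG, a glycosyltransferase that tunes which ligand a receptor answers, rose by 1.00 ± 0.09 log2 units (adjusted p = 1.81e-05), with 14, 17.2 and 21.5 CPM in co-culture and 6.18, 8.49 and 11.3 CPM in CM, and every co-culture library lay above control replicate 1 at 8.69 CPM. ADAM10, the protease of the first cleavage, rose by 0.43 ± 0.10 log2 units (adjusted p = 0.00883). Over the pathway list 12 of 27 rose and 0 fell, with a median log2 fold change of 0.42. Of its members 10 of the 22 present in control rose. Without young CM replicates 2 and 3, an alternative chosen after seeing the data, 7 of 28 rose and 0 fell. That fit called fewer genes over all tested, 1170 higher and 437 lower, against 2311 and 1531 with all 12 libraries. Its list counts, here and below, therefore do not stand against 13.1% and 8.69%, and a smaller count alone does not show a weaker change.

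Of the interferon-stimulated genes, which encode antiviral effectors, 25 of 45 rose and 1 fell, against 13.1% and 8.69% of all genes tested, with a median log2 fold change of 0.52. In that list 19 of the 36 present in control rose and 1 fell. OAS2 (ENSG00000111335.14; chromosome 12, 112978395 to 113011723, plus strand), which makes the second messenger of RNase L, stood at 62.7, 58.8 and 80.9 CPM with young and 34.5, 36.6 and 29.6 CPM with senescent MSCs in co-culture, and at 9.49, 9.62 and 14.1 CPM and 16.1, 15.1 and 20.9 CPM in CM. Co-culture libraries were above all CM libraries and above control replicate 1 (23.8 CPM), and young co-culture was above senescent co-culture. The log2 fold change of OAS2 was 1.78 ± 0.26 (adjusted p = 0.000522). IFIT1, which binds foreign RNA ends, had 14, 27.1 and 53.4 CPM in co-culture and 6.95, 8.97 and 12.4 CPM in CM and rose by 1.63 ± 0.25 log2 units (adjusted p = 0.000741); its senescent co-culture libraries, at 18.0, 21.0 and 14 CPM, spanned the 20.9 CPM of control replicate 1. IFI6 rose by 1.31 ± 0.24 log2 units (adjusted p = 0.00254), to 59.4, 125 and 140.3 CPM, and OAS1 by 1.03 ± 0.14 log2 units (adjusted p = 0.000328). The regulators STAT2 and IRF9, which act in the response to type I interferon, rose by 0.53 ± 0.15 and 1.12 ± 0.22 log2 units (adjusted p = 0.0248 and 0.00368, edgeR). IRF1, which answers interferon gamma more, fell, with -0.32 ± 0.10 log2 units (adjusted p = 0.0398). Commonly used members did not pass: ISG15 had 0.43 ± 0.18 log2 units (adjusted p = 0.107), IFIT3 -0.07 ± 0.11 log2 units (adjusted p = 0.636) and IFITM3 -0.05 ± 0.13 log2 units (adjusted p = 0.796). B2M, a gene of antigen presentation, had 0.12 ± 0.13 log2 units (adjusted p = 0.526). IFI6, STAT2, the IRF genes and the members that did not pass were chosen after their values were seen.

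IFIT1 and IFI6 are shown by their windows because both held repeated matches to the interferon-stimulated response element, searched as GAAANNGAAA on both strands and found in 3.02% of all promoters, 2 or more times in 0.22%. IFIT1 held 2 on the opposite strand, starting 116 and 103 bases before the start, in chr10:89392373-89392622, plus strand. IFI6 held 3, starting 156, 115 and 93 bases before the start, in chr1:27672193-27672442, minus strand. BST2 and IFI44L, a pair whose log2 fold changes were 1.59 ± 0.23 and 1.19 ± 0.25 log2 units, held 2 each, and OAS1 held 0. Those of BST2, starting 130 and 124 bases before the start, overlapped each other, and overlapping matches were counted separately. No window was matched for OAS2 in the table of promoters.
IFIT1: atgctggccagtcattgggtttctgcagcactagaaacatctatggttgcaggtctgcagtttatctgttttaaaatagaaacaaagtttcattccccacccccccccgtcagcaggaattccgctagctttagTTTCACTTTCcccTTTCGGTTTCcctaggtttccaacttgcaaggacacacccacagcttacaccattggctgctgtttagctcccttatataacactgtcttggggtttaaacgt
IFI6: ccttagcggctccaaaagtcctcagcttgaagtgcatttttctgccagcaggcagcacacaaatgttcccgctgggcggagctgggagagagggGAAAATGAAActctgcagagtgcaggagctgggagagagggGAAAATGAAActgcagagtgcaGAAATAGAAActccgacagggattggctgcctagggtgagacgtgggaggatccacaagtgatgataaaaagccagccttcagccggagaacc

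Most endothelial identity genes rose in co-culture. The summed share of counts of the identity genes was 0.866 to 1.04% in co-culture, 0.533 to 0.807% in CM and 0.489 to 0.675% in control. Of the list 23 of 35 rose and 0 fell, with a median log2 fold change of 0.66. Of its members 22 of the 33 present in control rose, and 18 of 35 rose without young CM replicates 2 and 3. PECAM1 (ENSG00000261371.6; chromosome 17, 64319415 to 64413776, minus strand), the junction protein CD31, stood at 1269.5, 1226 and 1190.0 CPM with young and 1160.2, 1209 and 1335 CPM with senescent MSCs in co-culture, and at 576, 517 and 619 CPM and 636, 731 and 713 CPM in CM, with 409 to 621 CPM in control. The lowest co-culture library was above the highest CM library, and the log2 fold change was 0.97 ± 0.09 (adjusted p = 1.75e-05). CDH5, VE-cadherin, rose by 0.95 ± 0.14 log2 units (adjusted p = 0.000511). Its levels were 586, 692 and 801 CPM in co-culture and 239, 372 and 540.0 CPM in CM. KDR and FLT1, the receptors of VEGF, rose by 1.07 ± 0.18 log2 units (adjusted p = 0.00142) and 0.87 ± 0.11 log2 units (adjusted p = 0.000132). STAB1 and MMRN1, a scavenger receptor and a protein stored in endothelial granules, rose by 1.39 ± 0.20 log2 units (adjusted p = 0.000353) and 1.59 ± 0.25 log2 units (adjusted p = 0.000742), and VWF, of the same granules, by 1.01 ± 0.26 log2 units (adjusted p = 0.014). The transcription factors ERG and FLI1, which keep endothelial genes on, rose by 0.66 ± 0.11 and 0.85 ± 0.10 log2 units (adjusted p = 0.0013 and 0.000114, edgeR). NOS3, the nitric oxide synthase, had 0.41 ± 0.21 log2 units (adjusted p = 0.162), CD34 -0.19 ± 0.10 log2 units (adjusted p = 0.16) and SOX17 -0.08 ± 0.12 log2 units (adjusted p = 0.67). VWF, ERG, FLI1 and the genes after them were chosen after their values were seen.

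Among contact and junction genes, most cadherins rose. Of the cadherins 8 of 9 rose and 0 fell, of the immunoglobulin-type adhesion genes 5 of 10 rose and 0 fell, of the tight junction genes 0 of 7 rose and 1 fell, and of the gap junction genes 0 of 3 rose and 0 fell. Whether these groups differ was not tested. Of the cadherins 4 of the 5 present in control rose. The other 4 that rose were near absent or had a stromal excess. Over the whole list the median log2 fold change was 0.48, and 0.21 without young CM replicates 2 and 3. PCDH12, the VE-cadherin-like protocadherin of endothelium, stood at 15.5, 18.6 and 24.6 CPM in co-culture and 5.20, 7.39 and 10.9 CPM in CM and rose by 1.34 ± 0.16 log2 units (adjusted p = 0.000115), against 4.88 CPM in control replicate 1. PCDH1 rose by 1.28 ± 0.14 log2 units (adjusted p = 6.28e-05), with 138, 173 and 211 CPM in co-culture and 40.1, 75.7 and 114 CPM in CM. The groups of both genes did not overlap, which the rule for naming them required. CDH11, the cadherin of fibroblasts, was near absent in control and reached a mean of 1.70 CPM in co-culture, 71.5 in control replicate 1. CDH2, N-cadherin, which joins endothelial cells to mural cells, had 0.01 ± 0.12 log2 units (adjusted p = 0.945), and GJA1, connexin 43, 0.20 ± 0.09 log2 units (adjusted p = 0.126). CLDN1, a tight junction claudin, fell, with -0.70 ± 0.11 log2 units (adjusted p = 0.000652) and 9.83, 11.6 and 11.9 CPM in co-culture and 14.3, 18.5 and 21.3 CPM in CM. CDH11, CDH2 and GJA1 were chosen after their values were seen.

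**Figure D3:**
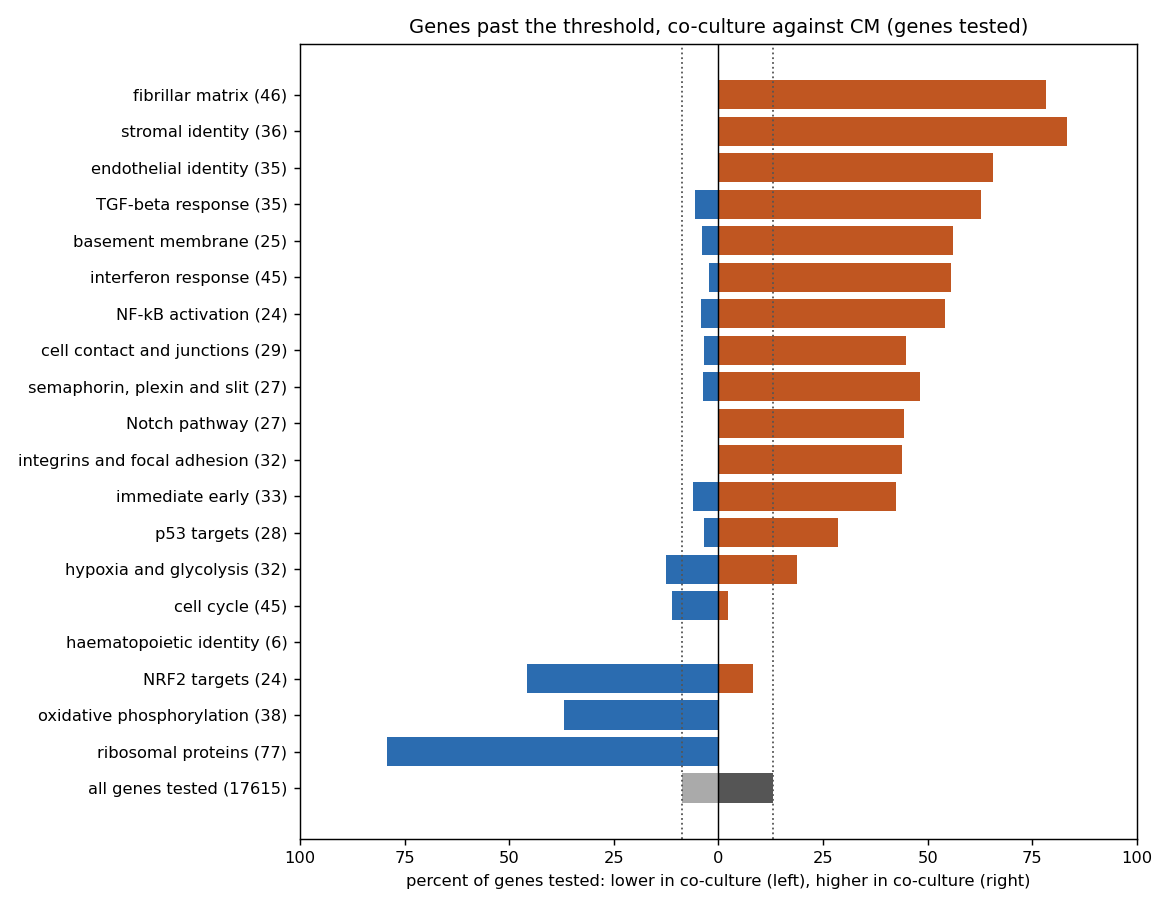
Percent of the genes tested in each list that were higher (right) or lower (left) in co-culture than in CM at an adjusted p under 0.05 (edgeR), with the number tested in brackets and dotted lines at the percentages over all genes. The stromal identity list (30 of 36) and the ribosomal protein list (61 of 77) hold the highest shares in the upward and the downward direction among the 19 lists drawn.

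Matrix genes and their receptors rose, part of them in the near absent and stromal excess classes. Among basement membrane genes 14 of 25 rose and 1 fell (median log2 fold change 0.59). Of them 9 of the 17 present in control rose and 1 fell. Without young CM replicates 2 and 3, 5 of 25 rose and the median was 0.38. HSPG2, the heparan sulphate proteoglycan perlecan, stood at 709.9, 1199.9 and 1409 CPM in co-culture and 154, 312 and 584 CPM in CM and rose by 1.83 ± 0.23 log2 units (adjusted p = 0.000157), to a mean above the 272 CPM of control replicate 1. LAMA5 and LAMA4, the laminin chains of vessel walls, rose by 1.02 ± 0.21 and 0.59 ± 0.14 log2 units (adjusted p = 0.00514 and 0.0119, edgeR). The laminins, COL4A1 and COL4A2 were chosen after their values were seen. SPARC, COL4A1 and COL4A2 rose too but carried a stromal excess, at 1319, 903 and 824 CPM in control replicate 1. Of fibrillar matrix genes 36 of 46 rose and 0 fell; 29 of those 36 were near absent or had a stromal excess, and of the 15 present in control 7 rose. Among integrins proper 13 of 17 rose and 0 fell: ITGB4, ITGA10 and ITGAV, chains that bind laminin, collagen and vitronectin, rose by 1.11 ± 0.17, 1.08 ± 0.18 and 0.96 ± 0.17 log2 units (adjusted p = 0.000642, 0.0013 and 0.00188, edgeR). Of the focal adhesion proteins that sit behind them 1 of 15 rose and 0 fell; TLN1, VCL and ZYX, also chosen so, had 0.28 ± 0.18, 0.10 ± 0.15 and -0.08 ± 0.11 log2 units.

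Among semaphorin, plexin, slit and roundabout genes, which guide vessels and axons, 13 of 27 rose and 1 fell, and 10 of the 22 present in control rose and 1 fell: PLXND1, the endothelial semaphorin receptor, rose by 1.21 ± 0.17 log2 units (adjusted p = 0.000295), ROBO4 by 0.84 ± 0.15 log2 units (adjusted p = 0.00165) and SEMA3F, which repels vessels, by 0.79 ± 0.11 log2 units (adjusted p = 0.000363). In the ephrin family 4 of 13 rose and 0 fell, with EPHB4, the receptor that marks veins, at 166, 203 and 270.4 CPM in co-culture and 54.3, 97.3 and 136 CPM in CM and 1.16 ± 0.15 log2 units (adjusted p = 0.000196). TGF-beta and BMP genes included 22 of 35 that rose and 2 that fell, and 13 of 37 that rose without young CM replicates 2 and 3. Within states 22 rose with young and 2 with senescent MSCs, beside 11% and 2.3% of all genes tested. Of these genes 16 of the 26 present in control rose. Among them, ACVRL1, the endothelial BMP receptor ALK1, rose by 0.67 ± 0.12 log2 units (adjusted p = 0.00153), BMP6 by 1.06 ± 0.17 log2 units (adjusted p = 0.000782) and the BMP target ID1 by 0.66 ± 0.11 log2 units (adjusted p = 0.00165). Vasoactive and coagulation genes rose in 13 of 26 cases, among them PTGS2, the inducible cyclooxygenase with 1.36 ± 0.16 log2 units (adjusted p = 0.000111), EDN1, endothelin with 0.67 ± 0.12 log2 units (adjusted p = 0.00242), and F2R, the thrombin receptor with 0.75 ± 0.15 log2 units (adjusted p = 0.00357). SERPINB2, an inhibitor of plasminogen activators, fell, with -1.11 ± 0.19 log2 units (adjusted p = 0.00127). SERPINB2 was chosen after its values were seen.

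Of NF-kB target genes, which follow inflammatory cytokines, 13 of 24 rose and 1 fell, with a median log2 fold change of 0.68. Of the members 6 of the 15 present in control rose and 1 fell, with a median of 0.15, so that 7 of the 13 rises were near absent or stromal excess genes. Among chemokines 4 of 7 rose and 0 fell, of the leukocyte adhesion genes 2 of 2 rose and 0 fell, and of the feedback genes 3 of 10 rose and 0 fell. Only 2 of the 4 adhesion genes listed were tested. Within states 1 chemokine rose with young and 6 with senescent MSCs (medians 0.46 and 1.77), beside 11% and 2.3% of all genes tested. Of the adhesion genes 2 rose with young and 0 with senescent MSCs (medians 1.84 and 0.64), beside the same shares. The difference between states was not tested for these groups of genes. SELP, P-selectin, rose by 1.32 ± 0.21 log2 units (adjusted p = 0.001), with 7.74, 11.2 and 17.7 CPM in co-culture and 3.33, 4.61 and 6.6 CPM in CM, against 0.576 CPM in control replicate 1. ICAM1 rose by 1.16 ± 0.21 log2 units (adjusted p = 0.00236) and had a stromal excess (25.4 CPM in control replicate 1). CXCL8, interleukin 8, rose by 1.36 ± 0.33 log2 units (adjusted p = 0.0118), to a mean of 30.1 CPM, above control replicate 1 at 23.1. NFKBIA and TNFAIP3, the direct brakes on NF-kB, had 0.15 ± 0.13 log2 units (adjusted p = 0.425) and -0.04 ± 0.21 log2 units (adjusted p = 0.908), CCL2 had -0.42 ± 0.15 log2 units (adjusted p = 0.0537), and PTX3 fell, with -0.47 ± 0.13 log2 units (adjusted p = 0.0175). CXCL8 and the 4 genes after it were chosen after their values were seen. The interleukin IL1A fell, with -1.03 ± 0.13 log2 units (adjusted p = 0.000161) and 3.55, 4.16 and 5.68 CPM in co-culture and 7.35, 8.40 and 11.7 CPM in CM, whereas IL1B, with a stromal excess, rose by 1.88 ± 0.45 log2 units (adjusted p = 0.0108).

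Of the other genes present in control with the largest increases, CCM2L, a relative of an adaptor that steadies endothelial junctions, rose by 1.64 ± 0.14 log2 units (adjusted p = 1.04e-05), with 10.0, 15.1 and 16.7 CPM in co-culture and 3.64, 4.83 and 5.45 CPM in CM. ADCY4, an adenylyl cyclase, rose by 1.71 ± 0.20 log2 units (adjusted p = 9.52e-05), ALDH1A1, which makes retinoic acid, by 1.46 ± 0.19 log2 units (adjusted p = 0.000244), ABCA8, a lipid transporter, by 1.43 ± 0.22 log2 units (adjusted p = 0.000716), and the non-coding gene MTMR9LP by 1.50 ± 0.20 log2 units (adjusted p = 0.000263). ALDH1A1 showed steps without overlap, 25.3 to 30.8 CPM in control, 45.9, 55.4 and 97.9 CPM in CM and 123, 159.6 and 224 CPM in co-culture. All 5 had no overlap between co-culture and CM, which the rule for naming them required. Each had a co-culture mean above its level in control replicate 1, as did 1215 of the 1610 genes present in control that rose.

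Among the genes lower in co-culture, FGF1 and TMEM158 had the largest fold changes of those present in control and named by the rule. FGF1 (ENSG00000113578.18; chromosome 5, 142592178 to 142698070, minus strand), the acidic fibroblast growth factor, stood at 3.48, 4.78 and 5.48 CPM in co-culture and 10.1, 18.8 and 32.5 CPM in CM, with 26.5 to 41.5 CPM in control and 52.0 CPM in control replicate 1. Its co-culture libraries lay below all others, and senescent CM, at 16.8, 18.4 and 10.1 CPM, lay below young CM, at 32.0, 32.5 and 19.1 CPM. The log2 fold change of FGF1 was -2.17 ± 0.22 (adjusted p = 2.64e-05). TMEM158, a gene induced by Ras, had 38.6, 54.4 and 71.9 CPM in co-culture and 81.1, 174 and 253 CPM in CM and -1.60 ± 0.22 log2 units (adjusted p = 0.000295). AOX1, aldehyde oxidase, had -1.29 ± 0.14 log2 units (adjusted p = 5.33e-05), PTPRR, a phosphatase of MAP kinases, -1.08 ± 0.14 log2 units (adjusted p = 0.000156), and SOCS1, which damps cytokine receptors, -1.12 ± 0.16 log2 units (adjusted p = 0.000363). ANKRD1, a target of the stretch-responsive factor YAP, fell from 292, 379.6 and 487 CPM in CM to 169, 199 and 244 CPM in co-culture, with -0.91 ± 0.13 log2 units (adjusted p = 0.000311). The list of YAP targets as a whole had 4 of 20 higher and 2 lower, against 13.1% and 8.69% of all genes tested. CST1, a cystatin, had -0.95 ± 0.20 log2 units (adjusted p = 0.00472), the non-coding LINC01963 -0.95 ± 0.14 log2 units (adjusted p = 0.000482), MTARC1, a mitochondrial reductase, -0.94 ± 0.18 log2 units (adjusted p = 0.0025), and C19orf33 -0.89 ± 0.17 log2 units (adjusted p = 0.00258).

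Targets of NRF2, the regulator of antioxidant genes, were called in both directions: 2 of 24 rose and 11 fell, against 13.1% and 8.69% of all genes tested, with a median log2 fold change of -0.34. TXNRD1, thioredoxin reductase, stood at 380.1, 463 and 520.3 CPM in co-culture and 538, 675 and 911 CPM in CM and at 1028 to 1285 CPM in control. The groups were ordered control, CM and co-culture from high to low without overlap. Its log2 fold change was -0.59 ± 0.09 (adjusted p = 0.000939). NQO1, a quinone reductase, had -0.49 ± 0.10 log2 units (adjusted p = 0.00454), HMOX1, haem oxygenase, -0.66 ± 0.19 log2 units (adjusted p = 0.0272) and SLC7A11, the cystine carrier, -0.43 ± 0.13 log2 units (adjusted p = 0.031), and all 3 fell. GCLC, the enzyme of glutathione synthesis, rose instead, by 0.30 ± 0.10 log2 units (adjusted p = 0.0412), and GCLM had -0.25 ± 0.11 log2 units (adjusted p = 0.112). The 5 genes after TXNRD1 were chosen after their values were seen. Without young CM replicates 2 and 3, 5 of 24 members fell and 0 rose.

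**Figure D4:**
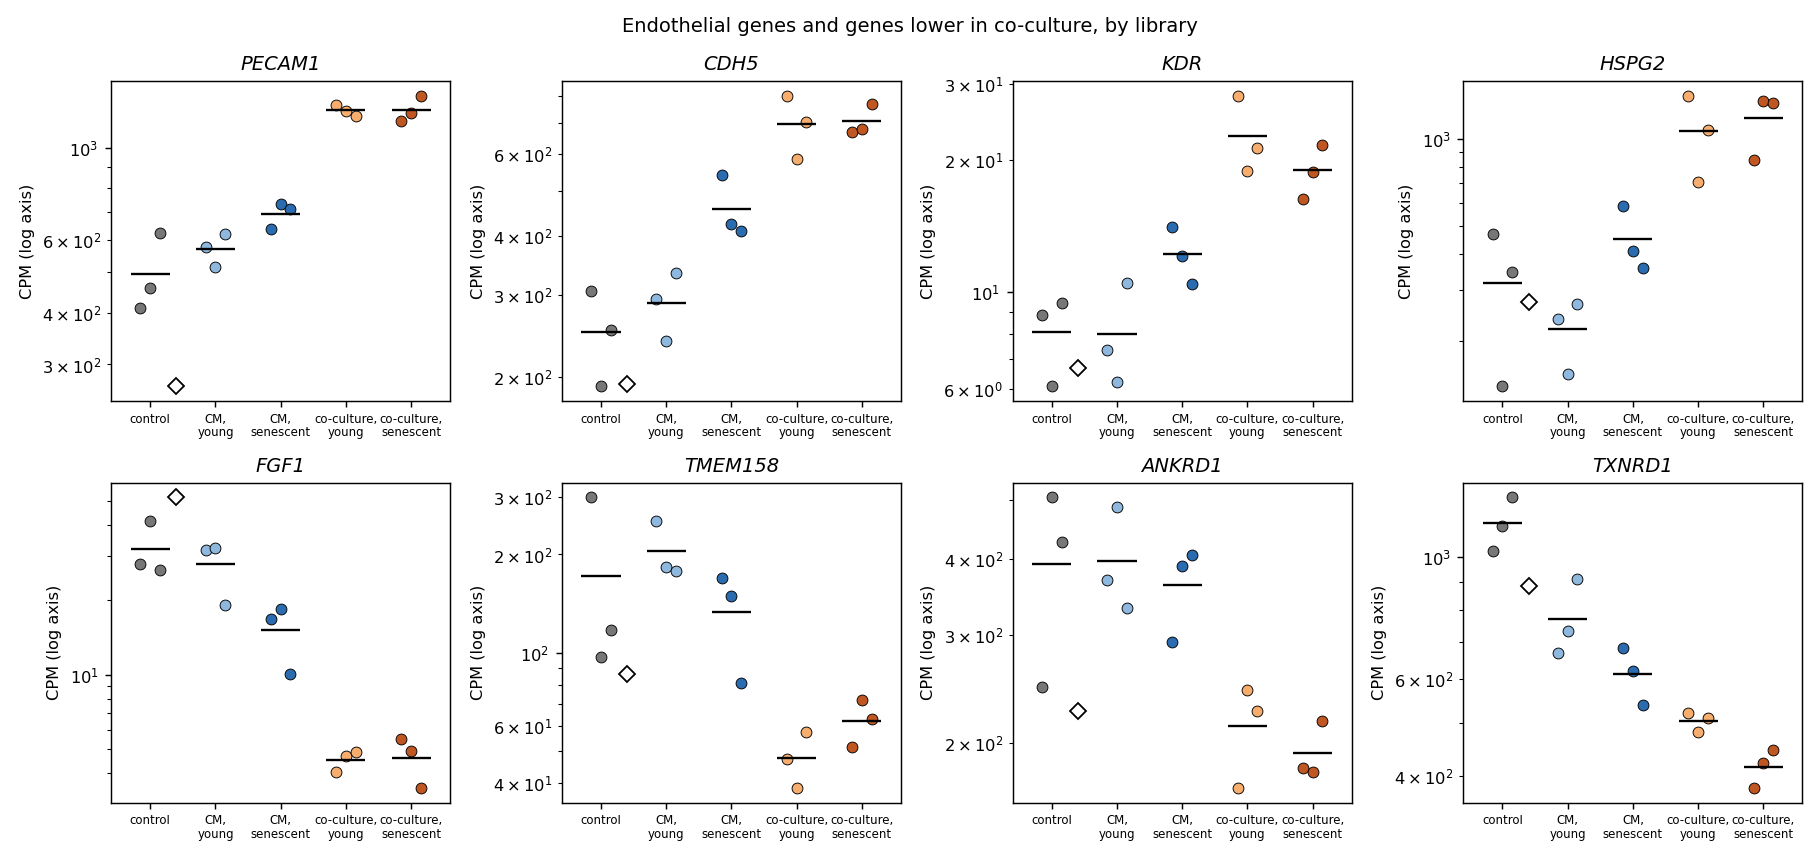
CPM (log axis) of 4 endothelial or basement membrane genes (PECAM1, CDH5, KDR, HSPG2) and 4 genes lower in co-culture (FGF1, TMEM158, ANKRD1, TXNRD1) in the libraries of replicates 2 to 4, with bars at group means (n = 3) and control replicate 1 as an open diamond. The 6 co-culture libraries do not overlap the 6 CM libraries in any of the 8 panels, which the rule for naming these genes required.

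Of ribosomal protein genes 0 of 77 rose and 61 fell, with a median log2 fold change of -0.57. Without overlap, 0 of the 77 lay lower in co-culture, against 2.34% of all genes tested. Most of the calls were lost without 2 libraries. Ribosomal protein genes took 12 and 12.2% of all counts in young CM replicates 2 and 3, 8.03% in young CM replicate 4, 6.80 to 9.31% in senescent CM, 5.71 to 9.27% in co-culture and 6.98 to 10.3% in control. Without those 2 libraries, 1 of 78 fell and the median was -0.32, in a fit where 437 genes fell over all tested. Between senescent co-culture and senescent CM 0 fell, against 0.386% of all genes tested, with a median of -0.43. With so few falls over all genes, these 2 counts do not show that the ribosomal difference was gone. Nuclear oxidative phosphorylation genes went the same way, with 14 of 38 lower (median -0.40) and 1 of 38 without those libraries (median -0.21). With senescent MSCs 0 of the 38 fell, against 0.386% of all genes tested, with a median of -0.25. Without overlap, 3 of the 38 lay lower in co-culture, against 2.34% of all genes tested. SDHA and CYC1 fell with -0.80 and -0.42 log2 units (adjusted p = 0.00379 and 0.0137, edgeR). Both calls held with each of the 12 libraries left out in turn, while that of UQCRC1 (-0.34 log2 units) was lost in 2 of those fits. Transcript length moved with the same difference: the median log2 fold change of genes present in control went from -0.17 in the shortest of 4 equal groups by exon length to 0.14 in the longest. In young co-culture against young CM those medians were -0.24 and 0.20, and with senescent MSCs -0.09 and 0.07. The part of transcript length in the calls above was not tested. After removal of the trend on length and GC content, 23 of 35 endothelial genes rose and 1 fell, and 68 of 77 ribosomal genes fell. The median of the basement membrane list went from 0.59 to 0.35 with that removal, that of the list of integrins and focal adhesion genes from 0.39 to 0.18, and that of the Notch list from 0.42 to 0.28.

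Genes near absent in control are given apart, since MSC RNA can supply them. Of the 4069, 1 had a mean of 5 CPM or more in co-culture or CM, and it did not pass the test. The highest fold changes here were those of ELN, elastin, and COL5A3, a collagen chain, genes of fibroblasts with 2.1 CPM in co-culture, 0.0569 CPM in CM and 4.88 CPM in control replicate 1 (5.02 ± 0.49 log2 units, adjusted p = 2.42e-05) and 3.74 CPM in co-culture, 0.152 CPM in CM and 157 CPM in control replicate 1 (4.50 ± 0.30 log2 units, adjusted p = 1.73e-06). CMKLR1, the receptor of chemerin, was at 0.174 to 0.22 CPM in control, 0.177, 0.203 and 0.144 CPM in young CM, 0.647, 0.427 and 0.491 CPM in senescent CM, 5.05, 5.11 and 2.65 CPM in young and 2.04, 2.51 and 2.02 CPM in senescent co-culture. All 6 co-culture libraries were above control replicate 1, at 0.63 CPM, and the log2 fold change was 3.17 ± 0.39 (adjusted p = 0.000132). MX2 and XAF1, interferon-stimulated effectors, rose by 3.16 ± 0.38 log2 units (adjusted p = 0.000109) and 2.60 ± 0.34 log2 units (adjusted p = 0.000219), to 0.767, 2.43 and 4.71 CPM and 2.23, 4.25 and 5.78 CPM, against 3.25 and 13.6 CPM in control replicate 1. For SNAI2, a mesenchymal transcription factor, the mean was 0.731 CPM in co-culture and 56.4 CPM in control replicate 1. ELN, COL5A3, MX2 and SNAI2 were chosen after their values were seen. Of the stromal excess class, POSTN rose by 3.23 ± 0.22 log2 units (adjusted p = 1.73e-06), COL1A2 by 2.98 ± 0.28 log2 units (adjusted p = 1.81e-05) and COL1A1 by 3.75 ± 0.27 log2 units (adjusted p = 3.46e-06), and the contractile genes MYL9 and TAGLN by 2.77 ± 0.26 and 2.29 ± 0.21 log2 units (adjusted p = 2.06e-05 and 1.75e-05, edgeR), with 951 and 1120.0 CPM in control replicate 1. Just inside the near absent limit were ABCG1 and ADAM12, at 0.499 and 0.495 CPM in control, and just outside it PAMR1 and MFAP5, at 0.515 and 0.520 CPM. Of the haematopoietic markers tested, 0 of 6 rose and 0 fell, and of the adipocyte markers 1 of 7 rose and 1 fell, against 13.1% and 8.69% of all genes tested.

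The comparison was then made within each MSC state. Young co-culture differed from young CM in 3194 genes (18.1%), 1938 (11%) higher and 1256 (7.13%) lower, and senescent co-culture from senescent CM in 473 (2.69%), 405 (2.3%) higher and 68 (0.386%) lower. The first split went from 60.68% higher to 50.87% with RLE factors, 47.51% with DESeq2 and 48.95% without the length and GC trend. These counts do not show that contact with young MSCs did more: the difference between the states was tested directly and passed for 21 genes (0.119%), 12 (0.0681%) with a higher fold change with senescent MSCs and 9 (0.0511%) with a lower one, and at an unadjusted p under 0.05 for 1273 genes. Single libraries moved these counts: the first lay between 1045 (without young CM replicate 3) and 6244 (without young CM replicate 4), the second between 236 (without senescent co-culture replicate 2) and 660 (without young CM replicate 4), and that of the difference between 4 (without senescent CM replicate 4) and 132 (without young CM replicate 4). Only 3 of the 21 were present in control without an excess, OAS2, SNAI1 and GDF6, and all 3 had the higher fold change with young MSCs. Rises in the lists with young and then with senescent MSCs stand beside 11% and 2.3% of all genes. TGF-beta and BMP genes had 22 and 2 of 35 and interferon-stimulated genes 25 and 7 of 45. Basement membrane genes had 13 and 3 of 25 and integrin and focal adhesion genes 15 and 2 of 32. Endothelial identity genes had 21 and 11 of 35. Stromal identity genes had 24 and 24 of 36 and NF-kB targets 9 and 10 of 24. The difference between states was not tested for lists.

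Of the 9 genes with a lower fold change with senescent MSCs, 3 are interferon-stimulated: OAS2, XAF1 and MX2. For OAS2 the log2 fold change was 2.61 ± 0.19 with young and 0.95 ± 0.18 log2 units with senescent MSCs, a difference of -1.66 ± 0.26 log2 units (adjusted p = 0.0293, edgeR). XAF1 differed by -2.28 ± 0.28 log2 units (adjusted p = 0.00623) and MX2 by -2.41 ± 0.40 log2 units (adjusted p = 0.0323). The 3 young co-culture libraries of XAF1 stood at 5.58, 5.67 and 5.78 CPM and the senescent ones at 2.89, 2.91 and 2.23 CPM, without overlap, and senescent CM, at 0.894, 0.724 and 1.15 CPM, was above young CM, at 0.341, 0.444 and 0.418 CPM. IFIT1 and OAS1 showed 2.36 ± 0.23 with young and 0.90 ± 0.22 log2 units with senescent MSCs, and 1.45 ± 0.13 with young and 0.60 ± 0.13 log2 units with senescent MSCs, but their differences did not pass (adjusted p = 0.135 and 0.135). CMKLR1 differed by -2.54 ± 0.40 log2 units (adjusted p = 0.0293) and SNAI1, a repressor of cadherin genes, by -1.13 ± 0.19 log2 units (adjusted p = 0.0323). NEDD9 and ICAM1, both with a stromal excess, differed by -1.15 ± 0.17 and -1.36 ± 0.22 log2 units (adjusted p = 0.0266 and 0.0321). The mean of SNAI1 was 59.4 and 64.1 CPM in young and senescent co-culture and 20.9 and 49.3 CPM in the matching CM, and that of NEDD9 14.5 and 16.5 CPM in young and senescent co-culture and 5.16 and 13 CPM in the matching CM. For both genes the co-culture means lay close together and the CM means apart, whereas ICAM1 stood at 17.2 and 12.3 CPM in young and senescent co-culture and 4.77 and 8.81 CPM in the matching CM. With 1 library left out, the difference was lost for OAS2 in 9 of 12 fits (highest adjusted p = 0.116, without young co-culture replicate 4), for CMKLR1 in 9 (0.097, without young CM replicate 2) and for NEDD9 in 8 (0.089, without senescent CM replicate 4). That of XAF1 kept its call in all 12.

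Genes with the higher fold change in senescent co-culture were near absent in control or carried a stromal excess in all 12 cases. IL1B, an inflammatory interleukin, stood at 16.1, 11 and 10.9 CPM in senescent and 2.18, 2.81 and 2.03 CPM in young co-culture, with 0.766, 1.57 and 2.02 CPM in CM and 70.9 CPM in control replicate 1. Its log2 fold change was 0.44 ± 0.27 with young and 3.28 ± 0.28 log2 units with senescent MSCs, a difference of 2.84 ± 0.38 log2 units (adjusted p = 0.0112, edgeR). C11orf96, EREG, an EGF receptor ligand, and MEDAG, a gene of adipose stroma, differed by 3.89 ± 0.42, 3.50 ± 0.39 and 3.30 ± 0.44 log2 units (adjusted p = 0.00303, 0.00303 and 0.0112), and their senescent co-culture means were 1.60 ± 0.409, 2.18 ± 0.311 and 5.38 ± 1.25 CPM (SD, n = 3). For MEDAG the call was lost without senescent CM replicate 4 (adjusted p = 0.0507). NOTCH3 and COL3A1 differed by 2.25 ± 0.34 and 1.90 ± 0.30 log2 units (adjusted p = 0.0266 and 0.0294). The stromal markers COL1A1 and LUM were themselves higher in senescent co-culture, as given above, and their part in these differences was not tested.

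**Figure D5:**
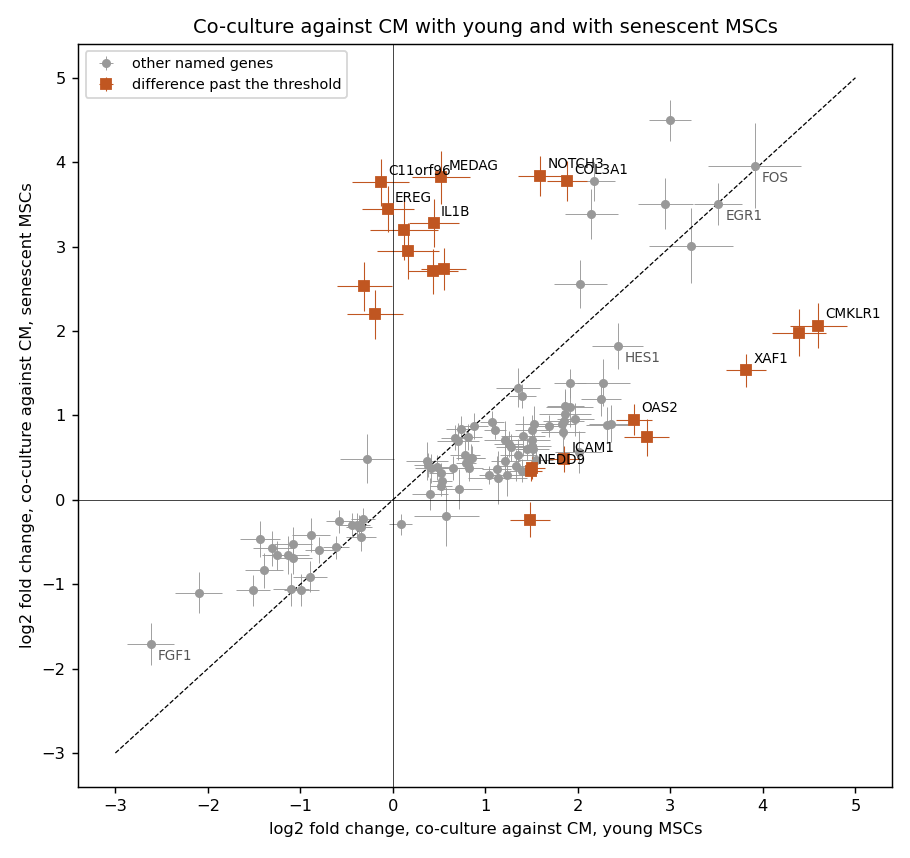
Log2 fold change of co-culture against CM with young MSCs (x axis) and with senescent MSCs (y axis), with standard errors, for the named genes (grey) and for the 21 genes whose difference passed the threshold (orange squares), with a dashed line of equality. FOS, EGR1 and HES1 lie among the grey points at 2.43 or more with young MSCs, while XAF1, OAS2 and CMKLR1 lie below the line and IL1B, EREG and C11orf96 above it.

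The remaining lists are read against the 13.1% of all genes tested that rose and the 8.69% that fell. Several lie near those shares, such as the fall of 11.1% of cell cycle genes and the rise of 12.5% of stress response genes. Of cell cycle genes 1 of 45 rose and 5 fell, with AURKB, a mitotic kinase, at -0.27 ± 0.09 log2 units (adjusted p = 0.0371, edgeR), a call lost in 7 of 12 fits with 1 library left out (adjusted p up to 0.0837, without young co-culture replicate 2). Of p53 targets 8 of 28 rose and 1 fell, among them PPM1D and PLK3 at 0.51 ± 0.10 and 0.42 ± 0.09 log2 units. Of hypoxia and glycolysis genes 6 of 32 rose and 4 fell, with VEGFA, in the stromal excess class, at 0.67 ± 0.11 log2 units and the glycolytic enzyme ENO1 at -0.37 ± 0.10 log2 units. Of cholesterol genes 5 of 28 rose and 5 fell: the lipid regulator SREBF1 rose by 0.87 ± 0.18, and 5 of 20 synthesis genes fell. Of genes of the integrated stress and unfolded protein responses 4 of 32 rose and 5 fell, PHGDH and SHMT2, enzymes of serine and glycine synthesis, falling with -0.34 ± 0.09 and -0.33 ± 0.08 log2 units and the chaperone PDIA4 rising by 0.38 ± 0.08 log2 units. Of Wnt genes 9 of 24 rose and 0 fell, 7 of the 9 near absent or with a stromal excess. Of matrix proteases and inhibitors 9 of 21 rose and 1 fell (4 of the 12 present in control rose and 1 fell), with MMP2, gelatinase A, at 1744 ± 159 against 1005 ± 358 CPM and 0.87 ± 0.17 log2 units. Of secretory genes of senescence 14 of 39 rose and 5 fell, and 7 of the 25 present in control rose and 4 fell. Of aryl hydrocarbon receptor targets 1 of 8 rose and 1 fell, of mitochondrially encoded genes 0 of 13 rose and 2 fell, of sprouting genes 14 of 27 rose and 3 fell, and of epithelial markers 2 of 12 rose and 1 fell. Of smooth muscle genes 10 of 17 rose and 2 fell, and 2 of the 4 present in control rose and 1 fell.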

How the data were processed

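Poly(A) RNA of 27 libraries was sequenced from strand-marking libraries, per the labels' protocols, which name MSCs as the RNA source although the cell type label is endothelial. The deposited values are raw read counts per gene for 60648 entries. HISAT2 2.2.1, featureCounts 2.0.1 and GRCh38 (hg38) stand in the submitters' processing notes; the strand setting is not given in the sources used here, nor is the annotation release. Totals ran from 66320519 to 111512357 counts, and 44 pseudoautosomal Y entries were left out. Gene positions are those of GENCODE 29.

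Groups came from the titles. Counts of the 12 libraries were fitted in R 4.3.3 with edgeR 4.0.16 (quasi-likelihood test, MSC state and exposure as terms, filterByExpr with a minimum count of 10, TMM factors over all 27 libraries, Benjamini-Hochberg adjustment, threshold 0.05), after tests on simulated data. Contrasts within each MSC state and their difference came from a fit of the 4 groups. All libraries carry 1 run label, so no batch could be set against the groups. Replicate 1 was left out by the choice of members, and the control served only for levels. DESeq2 1.42.0, RLE scaling, TMM over genes present in control, no filter, a replicate block, other limits for near absent genes, replicate 1 added and each library left out were the alternatives.

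Named genes had passed the threshold with 5 CPM or more in co-culture or CM and no overlap of libraries: the 12 highest and 12 lowest fold changes of genes present in control, 8 of near absent genes (0 qualified) and 4 with a stromal excess. Up to 4 members of each of 33 lists, Notch ligands, receptors and targets at 1 CPM or more, and 4 genes in each direction of the difference between states were added. Members and lists were chosen with earlier results of these data known.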

Additional observations from a re-analysis of the deposited data

Results flagged for a closer look

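The difference between co-culture and CM itself differed between young and senescent MSCs for 21 genes (interaction term, edgeR, adjusted p under 0.05). With the senescent minus the young log2 fold change as the measure, it was -2.54 for CMKLR1, -2.41 for MX2, -2.28 for XAF1, -2.0 for F2RL3, -1.72 for GDF6, -1.66 for OAS2, -1.36 for ICAM1, -1.15 for NEDD9 and -1.13 for SNAI1. It was 1.90 for COL3A1, 2.19 for MOXD1, 2.25 for NOTCH3, 2.28 for HSPB7, 2.39 for IGFBP5, 2.79 for PTGES, 2.84 for MMP3, 2.84 for IL1B, 3.08 for C1QTNF1, 3.30 for MEDAG, 3.50 for EREG and 3.89 for C11orf96.

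Libraries of replicate 1, which the comparison leaves out, stood apart within some groups of 4, by the gap of the outermost library from its neighbour relative to the range of the group (Dixon's 95% limit). COL1A1 was at 4104 CPM in control replicate 1, 4621 in young CM replicate 1 and 5414 in senescent CM replicate 1. The share of counts in stromal identity genes was 2.45% in young CM replicate 1 and 2.58% in senescent CM replicate 1. In young co-culture replicate 1, 27.8% of counts lay in ribosomal protein genes. Chance alone marks about 1 in 20 groups by this rule, and 12 groups of values were checked (COL1A1, the stromal share and the ribosomal share in control, both CM groups and young co-culture).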

How the results depend on the processing

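Replicate 1 of CM stood apart in stromal genes, with COL1A1 at 4621 CPM (young) and 5414 CPM (senescent). That of young co-culture had 30.2 CPM of COL1A1 and stood apart by 27.8% of counts in ribosomal protein genes. Adding replicate 1 gave 206 calls over all genes with edgeR (205 of them shared with the 3842). Of these, 138 were among genes present in control, 68 near absent and 0 with a stromal excess (114 at an unadjusted p under 0.05). There were 48 calls with young MSCs, 1 with senescent MSCs and 0 for the difference (222 at an unadjusted p under 0.05). DESeq2 was not run on that set. Of 111 named values, 30 then kept direction and side of the threshold, 56 no longer passed and 25 reversed, on the log2 scale: AURKB 0.18, C11orf96 -1.67, C19orf33 0.28, COL1A1 -3.89, COL1A2 -3.24, COL3A1 -2.56, CYC1 0.44, EGR1 -0.0897, EREG -2.41, ICAM1 -0.51, IL1B -2.55, LRRC32 -1.36, MEDAG -1.34, MYL9 -4.59, NEDD9 -0.25, NOTCH3 -4.88, POSTN -3.47, SHMT2 0.0243, SPARC -0.0916, SREBF1 -0.0794, TAGLN -4.16, UQCRC1 0.26, VEGFA -0.46, XAF1 -0.68 and ZC3H12A -0.33. The cause was not tested.

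With each library left out in turn, the calls ranged from 2349 to 4846 over all genes, 1692 to 3834 among genes present in control, 545 to 875 near absent, 109 to 137 with a stromal excess, 1045 to 6244 with young MSCs, 236 to 660 with senescent MSCs and 4 to 132 for the difference. Without young CM replicates 2 and 3, chosen after seeing the data, the calls were 1607 (1477 of them shared with the 3842), 1078 among genes present in control and 429 near absent, and 8 of 103 named values no longer passed. The contrasts within states were not run that way.

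Without the filter on low counts, calls were 1138 near absent, 923 with senescent MSCs and 352 for the difference, and with DESeq2 they were 714 with senescent MSCs and 106 for the difference. The length and GC trend, chosen after seeing the data, gave 41 for the difference. A near absent limit of 0.1 CPM gave 229 near absent and 241 stromal excess calls, and one of 2 CPM gave 1210 and 69. The share of calls that were higher moved over all genes from 60.15% to 48.29% with DESeq2 and 49.08% with the trend removed, among genes present in control from 54.15% to 41.92% and 41.04%, and with young MSCs from 60.68% to 47.51% and 48.95%. With RLE factors those 3 shares were 51.45%, 44.31% and 50.87%. Of the 111 named values, RLE scaling and TMM over genes present in control changed no call or direction, and DESeq2 changed the call of 1.

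Libraries of the same replicate number did not all deviate together: 10 of 18 such pairs correlated over 0.1 (range -0.524 to 0.759, mean 0.192, other pairs -0.0965), and 6 of 12 libraries correlated best with their own number. With the replicate block, calls were 4693 over all genes (3826 shared with the 3842), 4443 with young MSCs, 618 with senescent MSCs and 46 for the difference.

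Depth was at least 66320519 counts in each library. Precision is limited by the number of libraries, 3 a group within each MSC state.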
